A study of Homo sapiens with 4 samples.

Results

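The 10 genes described here encode the enzymes and partner proteins that copy DNA methylation and histone H3 lysine 27 methylation, the Polycomb mark, onto newly made chromatin, together with relatives that act outside replication. They were taken by gene symbol: DNMT1, UHRF1, HELLS, DNMT3A, DNMT3B, EZH2, EZH1, SUZ12, EED and RBBP7, which are 10 of the 40205 rows of the expression table. All 10 reached an RPKM (reads scaled to the length of the gene model and the size of the library) of 1 in at least 1 library and so stood among the 16098 genes tested. DNMT1, UHRF1, HELLS and EZH2 are called replication-coupled below, from textbook knowledge that they are most abundant in dividing cells, and the other 6 genes serve as their comparison.

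The study sequenced poly(A) RNA from the human glioblastoma lines U87MG and U251 after depletion of SRSF1, a serine/arginine-rich splicing factor. The 2 libraries labelled KD came from cells infected with the lentivirus sh-SRSF1, and the 2 labelled WT from cells infected with the control lentivirus sh-NC, so both arms carried a lentiviral hairpin. Both arms had the same multiplicity of infection (20) and 1 week of puromycin selection to make stable lines in serum-containing medium. There was 1 library per line and arm, so 4 in all. The knockdown was therefore replicated only across the 2 lines, and no difference within a line has a replicate check. The labels name 1 hairpin against SRSF1 and do not say whether the arms of a line came from separate infections.

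DNA methylation at CpG sites is copied after each round of replication: UHRF1 binds the hemimethylated site and recruits DNMT1, which methylates the new strand, and the remodeller HELLS opens the chromatin for them. DNMT3A and DNMT3B set methylation on sites that had none. Polycomb repressive complex 2 (PRC2) places the methyl groups on lysine 27 of histone H3 through EZH2 or its relative EZH1, and neither works without SUZ12 and EED. EZH2 is the form of dividing cells and EZH1 is better known from resting cells. Many genes of the replication programme, several of these among them, are known targets of E2F transcription factors.

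The promoters of the 4 replication-coupled genes are shown because all 4 hold the letters of an E2F-type site close to the start of transcription, with EZH1, the relative of EZH2, added because its match lies farther from the start. Each runs 5′ to 3′ on the gene's strand from 150 bases before the RefSeq start to 20 bases after it, on GRCh38.p14, with the E2F-type letters in capitals. The positions are chr19:10194934-10195103 on the minus strand for DNMT1, chr19:4909351-4909520 on the plus strand for UHRF1 and chr10:94545638-94545807 on the plus strand for HELLS. They are chr7:148884272-148884441 on the minus strand for EZH2 and chr17:42745021-42745190 on the minus strand for EZH1.
DNMT1: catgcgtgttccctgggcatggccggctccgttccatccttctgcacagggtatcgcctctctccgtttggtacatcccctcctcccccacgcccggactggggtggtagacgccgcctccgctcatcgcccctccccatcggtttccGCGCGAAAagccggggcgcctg
UHRF1: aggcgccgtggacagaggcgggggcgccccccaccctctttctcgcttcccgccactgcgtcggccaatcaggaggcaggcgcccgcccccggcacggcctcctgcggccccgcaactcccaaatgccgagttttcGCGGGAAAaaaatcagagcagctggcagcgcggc
HELLS: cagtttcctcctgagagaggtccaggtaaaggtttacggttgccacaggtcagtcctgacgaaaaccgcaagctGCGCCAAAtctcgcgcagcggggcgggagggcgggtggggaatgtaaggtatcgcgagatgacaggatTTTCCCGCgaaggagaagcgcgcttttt
EZH2: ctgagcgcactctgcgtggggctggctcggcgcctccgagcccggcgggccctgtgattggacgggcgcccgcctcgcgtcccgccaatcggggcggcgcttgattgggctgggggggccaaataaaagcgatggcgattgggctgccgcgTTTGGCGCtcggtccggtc
EZH1: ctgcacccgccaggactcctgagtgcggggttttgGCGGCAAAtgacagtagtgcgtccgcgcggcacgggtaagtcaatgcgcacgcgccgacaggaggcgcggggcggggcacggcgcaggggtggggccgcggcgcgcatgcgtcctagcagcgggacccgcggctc

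The letters searched were TTTCCCGC, TTTCGCGC, TTTGCCGC and TTTGGCGC on both strands, in windows from 250 bases before to 50 bases after each start. DNMT1 has them from base -2 relative to the start, UHRF1 from base -14, HELLS from bases -76 and -8, and EZH2 from base 2. Genes with several starts have several windows: 2 of 3 UHRF1 windows (the second from base -160) and 1 of 2 EZH2 windows hold the letters. Among the other 6 genes EZH1 (from base -115) and SUZ12 (from base -189) hold them, and DNMT3A, DNMT3B, EED and RBBP7 do not. Of all 35116 windows 3.31% hold them, and of 9242 tested genes with a window 6.78% do. CCAAT, the letters bound by NF-Y, was found on either strand in 3 of the 4 replication-coupled genes and 4 of the other 6, against 44.6% of tested genes with a window. These are matches of letters in a window, and no binding was measured here.

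SRSF1, the target of the hairpin, was read first. Control and knockdown levels were 88.3 and 14.6 RPKM in U87MG, and 109 and 15.8 RPKM in U251. The knockdown libraries thus kept 16.6% and 14.5% of the control level, and the labels and the target gene go together in both lines. Across lines the change was -2.62 ± 0.16 (SE, n = 2 libraries per arm) on the log2(RPKM + 1) scale, with a limma adjusted p of 0.00217. A share of 0.594 of the 31-base words of SRSF1 transcripts also occurs in an overlapping or similar annotated gene, so its reads may not be wholly its own.

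Library totals recovered from the values ran from 25099799 to 27953878 reads, so depth differed little. Glioma markers were checked in every library: VIM (1065 to 1675 RPKM) and CD44 (124 to 184) were high throughout. GFAP, the astrocyte filament, was at most 0.0499 in U87MG and 1.47 in U251, and S100B was at most 0.0946 in any library. These 2 glial markers were thus low, but SLC1A3 of the same list was expressed in every library. Its control and knockdown levels were 13.4 and 12.8 RPKM in U87MG, and 13.5 and 34.2 in U251. OLIG2 stood at 0.936 and 2.46 in U87MG and at most 0.0263 in U251. SOX2 and NES were high in U251 (47.9 to 49.3 and 61.1 to 83.7) and low in U87MG (at most 0.121 and 1.79). Of the 4 microglial and immune markers only CD68 passed 1 RPKM, with summed levels of 62.6, 111.2, 8.59 and 10.8 in the order U87MG control and knockdown, U251 control and knockdown, while PTPRC and AIF1 stayed at or below 0.0516. The 4 neuronal markers summed to 5.63 to 8.65 RPKM and the 3 oligodendrocyte markers to at most 2.16. The neuronal marker RBFOX3 and the oligodendrocyte marker MOG were listed at 0 in all 4 libraries, and no endothelial marker passed 0.405.

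All 4 replication-coupled genes were lower in the knockdown than in the control in both lines. In U87MG all 4 were at least 2-fold lower, with a median log2 ratio of -1.35 (range -1.71 to -1.10), whereas in U251 none was, with a median of -0.56 (range -0.59 to -0.14). For the other 6 genes the median was -0.22 in U87MG (range -0.60 to 0.28) and -0.12 in U251 (range -0.67 to 0.13), and on this log2(RPKM + 1) scale none was 2-fold lower in either line. Without the added 1, DNMT3B in U251 was past 2-fold, at 41.3% of its control. The background over all 16098 genes was 3.58% at least 2-fold lower in U87MG and 1.71% in U251, and the medians were -0.05 and 0.00. Of all these genes 55.5% were below control in U87MG and 50.5% in U251, the shares against which the counts of genes below control are to be read. No gene of the 10 passed the test across lines: limma at an adjusted p of 0.05 over all genes called 0 lower (background 2.61% of genes) and 0 higher (background 1.16%). At an unadjusted p of 0.05 it called the 4 replication-coupled genes lower (background 12.8%) and none of the 10 higher (background 8.29%). In these bulk libraries fewer dividing cells and less RNA per cell cannot be told apart.

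**Figure D1:**
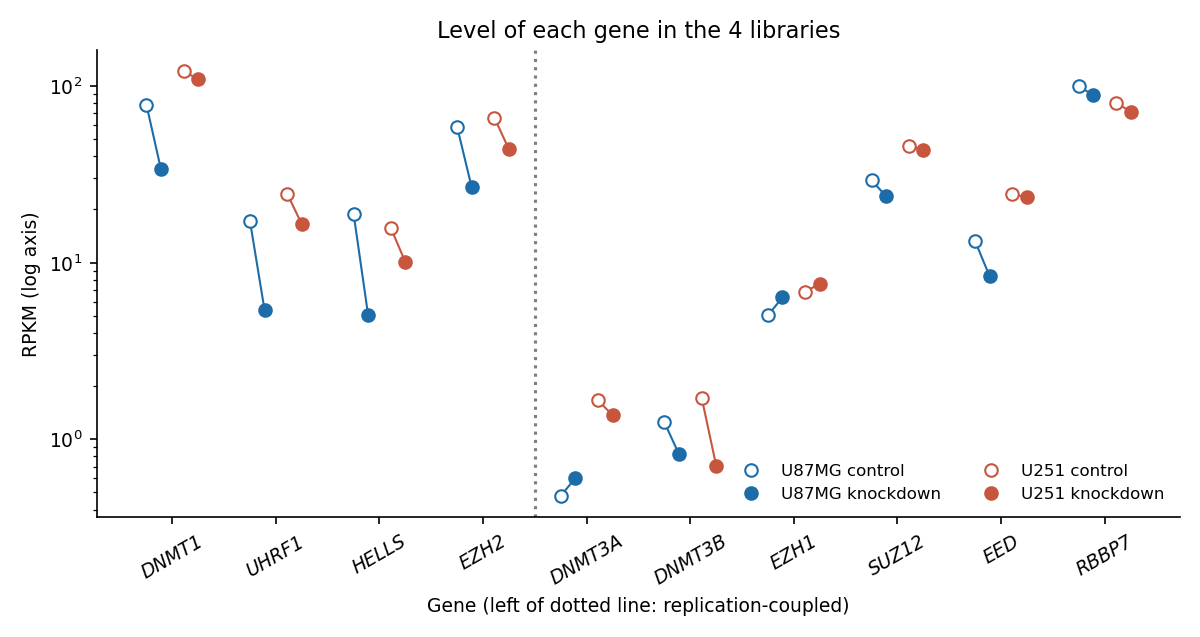
Level of each gene (RPKM, log axis) in the 4 libraries, with a line joining the control (open) to the knockdown (filled) of a cell line, U87MG in blue and U251 in red; the replication-coupled genes stand left of the dotted line. The blue lines of DNMT1, UHRF1, HELLS and EZH2 all slope down by at least 2-fold, DNMT1 in U251 goes from 120.5 to 109, and EZH1 slopes up in both lines.

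UHRF1, the reader of hemimethylated DNA (GRCh38 chr19:4903080-4962154, plus strand), stood at 17.1 RPKM with the control hairpin and 5.40 with the SRSF1 hairpin in U87MG cells, and at 24.4 and 16.5 in U251 cells. The U87MG knockdown was the lowest of the 4 libraries, and the U251 knockdown lay just below the U87MG control. From the recovered reads the knockdown level was 0.316 of the control in U87MG (95% counting interval 0.287 to 0.347) and 0.673 in U251 (0.634 to 0.715). Across lines the change was -1.02 ± 0.24 (SE, n = 2 per arm), which missed the threshold with a limma adjusted p of 0.0596. A share of 0.325 of its 31-base words is found in other annotated genes, mostly in AC112777.1, so part of its reads may belong elsewhere.

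HELLS, the SNF2-type remodeller needed for full methylation (chr10:94501434-94613905, plus strand), went from 18.8 RPKM (control) to 5.05 (knockdown) in U87MG and from 15.7 to 10.0 in U251. Both knockdown libraries lay below both controls. It had the lowest ratio of the 10 genes in U87MG, 0.268 of the control (0.243 to 0.295), and 0.641 in U251 (0.594 to 0.692). Across lines the change was -1.15 ± 0.26 (SE, n = 2 per arm; limma adjusted p = 0.0547), again just above the threshold.

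DNMT1, the maintenance methyltransferase (chr19:10133345-10231286, minus strand), stood at 78.3 RPKM (control) and 33.7 (knockdown) in U87MG, and at 120.5 and 109 in U251. From the recovered reads 0.431 of the control remained in U87MG (0.417 to 0.446) and 0.904 in U251 (0.885 to 0.924). The U251 knockdown still held more DNMT1 RNA than the U87MG control, so the arms overlap. The change across lines was -0.67 ± 0.24 (SE, n = 2 per arm; limma adjusted p = 0.177). In U251, 34.0% of tested genes had a ratio at or below that of DNMT1, and in U87MG 2.24%.

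EZH2, the PRC2 methyltransferase of dividing cells (chr7:148807383-148884321, minus strand), had control and knockdown levels of 58.3 and 26.6 RPKM in U87MG, and of 65.8 and 43.6 RPKM in U251. Both knockdowns were below both controls. The remaining level was 0.456 of the control in U87MG (0.432 to 0.482) and 0.662 in U251 (0.633 to 0.693). Its change across lines, -0.84 ± 0.18 (SE, n = 2 per arm), had the lowest adjusted p of the 10 genes, 0.0516 by limma. UHRF1, HELLS and EZH2 lay so near the threshold that the setting decides the call: all 3 passed after quantile normalization or when the filter asked for 5 RPKM in some library, and none passed under the other 6 settings tried. Over the 9 settings the adjusted p ran from 0.0195 for UHRF1, 0.0166 for HELLS and 0.0206 for EZH2 up to 0.99977 for each, the last without the block for cell line.

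**Figure D2:**
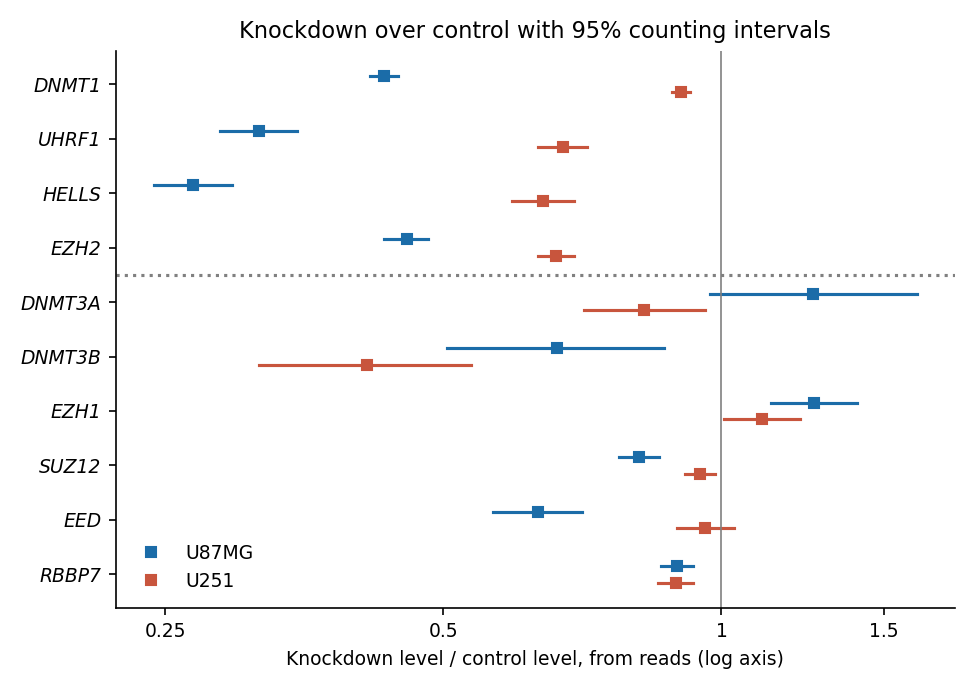
Knockdown level divided by control level (log axis) for each gene in U87MG (blue) and U251 (red); squares are the ratios and bars are 95% Clopper-Pearson counting intervals from recovered reads, which cover counting error only and no difference between cultures. The U87MG squares of the 4 genes above the dotted line lie between 0.268 and 0.456 and the U251 squares between 0.641 and 0.904, and the intervals of the 2 lines do not overlap for any of the 4.

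For the replication-coupled genes the U87MG log2 ratio minus the U251 log2 ratio was -1.05 (DNMT1), -0.96 (UHRF1), -1.12 (HELLS) and -0.52 (EZH2). With 1 library per line and arm the difference between the lines could not be tested beyond counting error. RBBP7 by contrast had the same ratio in both lines to within 0.0052 log2 units.

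Of the other catalytic genes DNMT3A and DNMT3B were weakly expressed and EZH1 was above its controls. DNMT3A (chr2:25227855-25342590, minus strand) had control and knockdown levels of 0.479 and 0.602 RPKM in U87MG (112 and 139 reads), and of 1.66 and 1.37 RPKM in U251 (370 and 340 reads). It entered the test only through U251. The counting interval of its U87MG ratio included 1 (1.26, 0.973 to 1.63) and that of U251 was 0.710 to 0.959, and the change across lines was -0.03 ± 0.22 (SE, n = 2 per arm; limma adjusted p = 0.960).

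DNMT3B (chr20:32762385-32809356, plus strand) stood at 1.25 RPKM with the control hairpin and 0.826 with the knockdown in U87MG, against 1.72 and 0.710 in U251. Both knockdowns were below both controls, and the lower ratio was that of U251, 0.413 of the control (0.316 to 0.536) against 0.663 in U87MG (0.505 to 0.867). These rest on 86 to 187 reads per library. On the log2(RPKM + 1) scale, which understates the change of low genes, the change was -0.48 ± 0.22 (SE, n = 2 per arm; limma adjusted p = 0.249).

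EZH1 (chr17:42700275-42745049, minus strand) was the only gene of the 10 above its control in both lines, with 5.03 RPKM (control) and 6.34 (knockdown) in U87MG and 6.84 and 7.58 in U251. The U87MG knockdown lay below the U251 control, so the arms overlap. The read ratios were 1.26 (1.13 to 1.40) and 1.11 (1.01 to 1.22), and the change across lines was 0.21 ± 0.16 (SE, n = 2 per arm; limma adjusted p = 0.514). EZH2 and EZH1 occupy the same place in PRC2, so their balance was computed per length. EZH2 made up 92.1% of the summed RPKM of the pair in the U87MG control and 80.8% in the knockdown, and 90.6% in the U251 control and 85.2% in the knockdown. The ratio of EZH2 to EZH1 was 11.6, 4.20, 9.62 and 5.75 in the same order, lower in both knockdowns than in both controls, with EZH2 still the more abundant of the pair in every library.

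The PRC2 core subunits shared by both enzymes were closer to their controls. SUZ12, the scaffold (chr17:31937018-32001045, plus strand), had control and knockdown levels of 29.2 and 23.7 RPKM in U87MG and of 45.8 and 43.4 RPKM in U251. The remaining level of SUZ12 was 0.814 in U87MG (0.774 to 0.856) and 0.948 in U251 (0.912 to 0.985), with both intervals below 1. The change of SUZ12 across lines was -0.18 ± 0.17 (SE, n = 2 per arm, limma adjusted p = 0.575). Its pseudogene SUZ12P1 stood at 15.8, 16.0, 34.3 and 40.3 RPKM, and a share of 0.134 of SUZ12 words is found in another gene, almost all in SUZ12P1. EED, which binds the trimethyl mark (chr11:86244544-86278813, plus strand), went from 13.2 to 8.35 RPKM in U87MG, and stood at 24.4 (control) and 23.4 (knockdown) in U251. The remaining level of EED was 0.632 in U87MG (0.566 to 0.706) and 0.960 in U251 (0.894 to 1.03, which includes 1), and the change across lines was -0.33 ± 0.19 (SE, n = 2 per arm; limma adjusted p = 0.364).

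RBBP7, a histone-binding subunit that PRC2 shares with other chromatin complexes (chrX:16839283-16870414, minus strand), was the most even of the 10, with control and knockdown levels of 99.1 and 88.8 RPKM in U87MG, and of 80.2 and 71.5 RPKM in U251. About the same share of the control remained in both lines, 0.895 (0.861 to 0.932) and 0.892 (0.854 to 0.932), and the change across lines was -0.16 ± 0.16 (SE, n = 2 per arm; limma adjusted p = 0.597). The ratio of EZH2 to SUZ12, 2.0 and 1.44 in the U87MG and U251 controls, was 1.12 and 1.01 in the knockdowns. Relative to SUZ12 the catalytic subunit was thus lower in both knockdowns than in both controls. The ratio of EZH2 to EED was 4.42 and 3.19 in U87MG and 2.70 and 1.86 in U251 (control and knockdown). That ratio was lower in the knockdown of each line, but the U87MG knockdown lay above the U251 control, so the arms overlap.

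Ratios within the methylation machinery differed between lines or arms in several ways. DNMT1 RPKM over the sum of DNMT3A and DNMT3B was 45.4 in the U87MG control and 23.6 in the knockdown, but 35.7 in the U251 control and 52.4 in the knockdown. DNMT1 over UHRF1 was 4.57 and 6.25 in U87MG and 4.93 and 6.62 in U251, higher in both knockdowns than in both controls. UHRF1 over its relative UHRF2 was 1.81 and 0.762 in U87MG and 1.0 and 1.09 in U251. Against PCNA, the replication clamp that binds DNMT1, DNMT1 stood at 0.583 and 0.620 in U87MG and at 0.734 and 0.952 in U251, so DNMT1 was not lower than PCNA by share in either knockdown.

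The order of levels was much the same in all libraries. RBBP7, DNMT1, EZH2 and SUZ12 were the 4 most abundant genes in every library and DNMT3A and DNMT3B the 2 least abundant. RBBP7 ranked first in both U87MG libraries and DNMT1 first in both U251 libraries. In the U87MG knockdown UHRF1 (5.40) and HELLS (5.05) were below EED (8.35) and EZH1 (6.34), which they exceeded in the U87MG control. With 1 library per line and arm the spread between neighbours in this order is not known.

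The levels of the 2 lines were compared over both arms. In the same fit 5 of the 10 genes were lower in U87MG than in U251 (background 27% of genes) and 0 were higher (background 21.6%). At an unadjusted p of 0.05 EZH2 was also on the lower side, and 0 were higher. DNMT1 was lower in U87MG by a log2 difference of -1.14 ± 0.24 (SE, n = 2 libraries per line; limma adjusted p = 0.00663) and EED by -1.11 ± 0.19 (limma adjusted p = 0.00237). The difference was -0.97 for UHRF1 (limma adjusted p = 0.0114), -0.74 for SUZ12 (limma adjusted p = 0.00798) and -0.70 for DNMT3A (limma adjusted p = 0.0280). DNMT3A, 1 of the 5, passed the filter of 1 RPKM only through U251, so its call is not independent of the filter. Such calls were common among all genes, so the count says little about these 10. With the U87MG knockdown among the 2 libraries of its line, this difference includes the lower knockdown values; in the controls alone DNMT1 was 78.3 against 120.5 RPKM and EED 13.2 against 24.4.

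**Figure D3:**
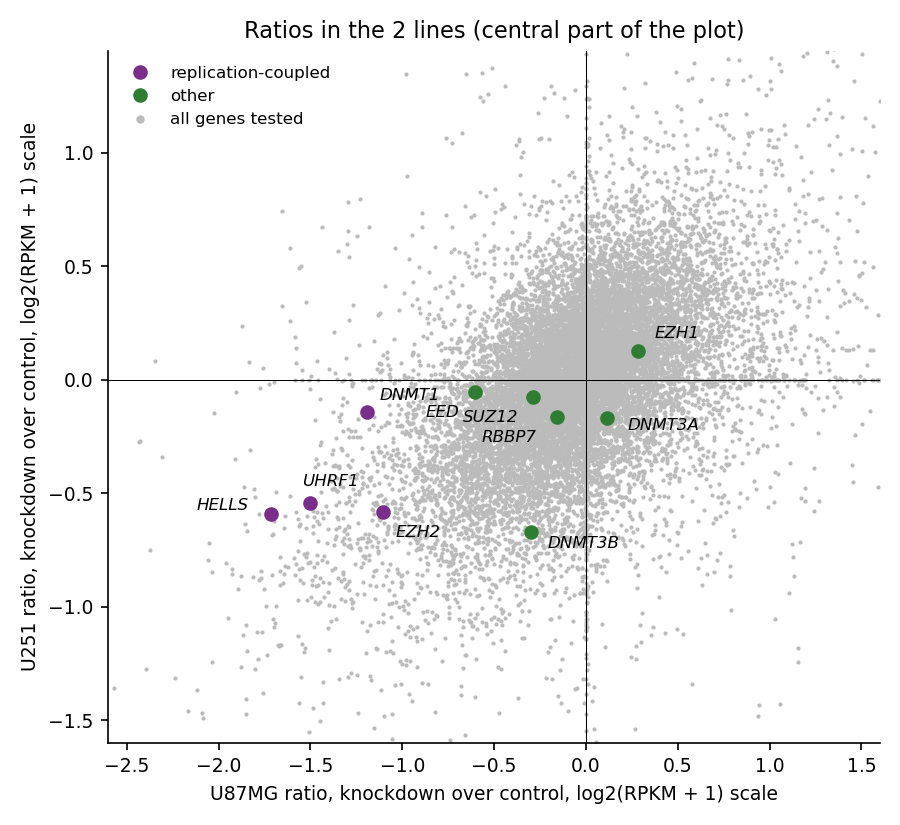
Ratio of knockdown to control on the log2(RPKM + 1) scale in U87MG (x axis) and U251 (y axis), with all genes tested in grey, the replication-coupled genes in purple and the other 6 in green; only the central range of the axes is drawn. The 4 purple points lie between -1.71 and -1.10 on the x axis, left of all 6 green points. On the y axis they lie between -0.59 and -0.14, and there the classes overlap. DNMT3B (-0.67) lies below all 4 purple points, and DNMT1 (-0.14) lies above DNMT3A (-0.17) and RBBP7 (-0.16).

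Genes were then ranked by how closely their profile over the 4 libraries followed the mean of the replication-coupled genes, as the Euclidean distance between centred log2(RPKM + 1) values, among 7297 genes with at least 5 RPKM in every library. The nearest was CDCA5, a cohesin regulator of dividing cells, at a distance of 0.0629, with 24.4, 8.34, 28.1 and 19.7 RPKM in the order given above. PCNA followed at 0.0818, then the kinesin KIF22 (0.104), the replication factor GINS2 (0.131), the kinesin KIF20B (0.132) and the centromere protector SGOL2 (0.137). The replication-coupled genes lay farther from their own mean than these, from 0.277 (UHRF1) to 0.502 (DNMT1). Of the 7297 genes, 35 lay nearer to that mean than UHRF1 and 151 nearer than DNMT1. The other 6 members lay at 0.736 (EED) to 1.35 (RBBP7). The mean was made from the replication-coupled genes and the named genes were picked as nearest, so both orders follow in part from the choice. The likeness of the named genes rests on 4 libraries and was not tested.

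Partners of maintenance methylation were read next. All 8 measured members of the cofactor list were below control in U87MG and again in U251 (medians -1.05 and -0.51), and limma called 2 of them lower and 0 higher (7 lower and 0 higher at an unadjusted p of 0.05). LIG1, the ligase of lagging-strand DNA, whose methylated form binds UHRF1, fell by 1.42 ± 0.18 (SE, n = 2 per arm; limma adjusted p = 0.0154). Its U87MG level was 10.1 RPKM in the control and 2.47 in the knockdown, and its U251 level 26.2 and 11.1. KIAA0101, the PCNA-associated factor PCLAF, fell by 1.08 ± 0.18 (limma adjusted p = 0.0270). PCNA itself (-0.90, limma adjusted p = 0.0580) and USP7, a deubiquitinase that binds DNMT1 (-0.66, limma adjusted p = 0.0789), did not pass. Calls of this fit for the genes in the lists, here and below, rest on the filter, the scaling and the block. Over all genes limma called 420 lower, but 5 after trimmed-mean rescaling and 0 without the filter or without the block. The counts of calls are to be read against the shares of all genes, 2.61% lower and 1.16% higher. At an unadjusted p of 0.05 the limma shares were 12.8% and 8.29%.

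Genes that move with the cell cycle were read beside these counts. The 16 S phase and proliferation markers were below control in 16 of 16 cases in U87MG and 15 of 16 in U251, with medians of -1.43 and -0.69, and limma called 9 lower and 0 higher. Their summed level was 1243 RPKM in the U87MG control and 438 in the knockdown, and 1581 in the U251 control and 977 in the knockdown. Their part in the levels of the replication-coupled genes was not tested. MKI67, a marker of cycling cells, fell by 1.74 ± 0.21 (SE, n = 2 per arm; limma adjusted p = 0.0122), with U87MG levels of 91.1 and 20.2 RPKM and U251 levels of 124 and 47.6 (control and knockdown). RRM2, the small subunit of ribonucleotide reductase, fell by 1.96 ± 0.27 (limma adjusted p = 0.0183). CCNE2 (cyclin E2) fell by 1.95 ± 0.17 (limma adjusted p = 0.00618), and TOP2A, the topoisomerase of dividing cells, fell by 1.34 ± 0.21 (limma adjusted p = 0.0243).

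In the E2F and RB family, which controls that programme, 12 of 13 genes in U87MG and 10 of 13 in U251 were below control, medians -0.46 and -0.70, with 5 called lower and 0 higher by limma. TFDP1, the DNA-binding partner of E2F proteins, fell by 1.75 ± 0.16 (SE, n = 2 per arm; limma adjusted p = 0.00723) and kept 13.9 of 51.0 RPKM in U87MG and 14.8 of 50.4 in U251. The RB relative RBL1 fell by 1.57 ± 0.19 (limma adjusted p = 0.0140), E2F8 fell by 1.44 ± 0.27 (limma adjusted p = 0.0335) and E2F2 fell by 1.05 ± 0.23 (limma adjusted p = 0.0496), and E2F1 was the fifth called. TFDP1 differed from the replication-coupled genes of the methylation machinery in that its ratio was nearly equal in the 2 lines, -1.81 and -1.70. The E2F-type letters were found in the promoter window of 5 of 11 genes of this family and 7 of 13 S phase markers that had a window, in 0 of 7 replication-coupled histone chaperones, and also in 3 of 6 imprinted genes and 3 of 7 PRC2 accessory subunits, lists with 0 calls by limma. In the other lists the letters were found in 3 of 7 maintenance cofactors, 2 of 7 methyl donor genes and 0 of 6 active demethylation genes. Methyl-CpG readers had 1 of 7, PRC1 subunits 0 of 18 and Polycomb antagonists 0 of 12. H3K9 genes had 1 of 9, H3K36 methyltransferases 0 of 2 and replication-independent chaperones 1 of 4. Germline genes had 0 of 2 and PRC2 targets 0 of 16. The share over all tested genes with a window was 6.78%. Any link between these letters and the ratios was not tested.

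Those chaperones, which place new histones behind the fork, were below control in 8 of 8 cases in U87MG and 6 of 8 in U251, medians -1.10 and -0.17, with 3 called lower and 0 higher by limma. CHAF1B, a subunit of the chromatin assembly factor CAF-1, fell by 1.36 ± 0.18 (SE, n = 2 per arm; limma adjusted p = 0.0154) and kept 3.70 of 12.7 RPKM in U87MG and 6.34 of 15.5 in U251. ASF1B fell by 1.19 ± 0.21 (limma adjusted p = 0.0288) and MMS22L fell by 0.94 ± 0.19 (limma adjusted p = 0.0450). TONSL, the partner of MMS22L, stood at -1.37 in U87MG and -0.14 in U251 (limma adjusted p = 0.173), a split like that of DNMT1. The 6 replication-independent chaperones, HIRA and ATRX among them, had medians of -0.06 and 0.23 and 0 calls in either direction, also at an unadjusted p of 0.05.

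The rest of the Polycomb system held 0 calls in 3 lists. Of 8 measured PRC2 accessory subunits limma called 0 in either direction (1 lower and 0 higher at an unadjusted p of 0.05), with medians of -0.02 and 0.02. PHF19, which brings PRC2 to chromatin, stood at -0.70 and -0.18 in U87MG and U251 (limma adjusted p = 0.230), and MTF2, of the same family, at 0.06 and 0.61 (limma adjusted p = 0.355). Of 21 PRC1 subunits, some of which read the PRC2 mark, limma called 0 (1 lower and 1 higher at an unadjusted p of 0.05). Their medians were -0.01 and 0.01. CBX2 stood at -0.53 and -0.77 (limma adjusted p = 0.119) and RYBP at 0.56 and 0.37 (limma adjusted p = 0.168). Of 16 Polycomb antagonists, such as H3K4 methyltransferases and H3K27 demethylases, 14 were below control in U87MG and 6 in U251, medians -0.41 and 0.05, with 0 calls (1 lower and 0 higher at an unadjusted p of 0.05). WDR5, a core subunit of the H3K4 methyltransferases, stood at -0.62 and -0.28 (limma adjusted p = 0.194).

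Other chromatin methylation genes held a few calls. Of 10 genes of H3K9 methylation and heterochromatin limma called 1 lower and 0 higher, medians -0.47 and -0.14: SUV39H1, an H3K9 methyltransferase, fell by 1.10 ± 0.23 (SE, n = 2 per arm; limma adjusted p = 0.0480) and kept 1.77 of 7.17 RPKM in U87MG and 2.82 of 4.97 in U251. The heterochromatin protein gene CBX3 stood at -0.66 (limma adjusted p = 0.0601) and the corepressor TRIM28 at -0.66 (limma adjusted p = 0.0972). Of 4 H3K36 methyltransferases limma called 1 lower and 0 higher, medians -0.60 and -0.29: WHSC1, also known as NSD2, fell by 0.86 ± 0.18 (limma adjusted p = 0.0449) and kept 25.5 of 54.9 RPKM in U87MG and 41.4 of 65.4 in U251.

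The supply, removal and reading of DNA methylation were read the same way. Of 10 genes of methyl donor supply 7 were below control in each line (55.5% and 50.5% of all genes), medians -0.49 and -0.26, and limma called 2 lower and 0 higher. MAT2B, the regulatory subunit of the enzyme that makes S-adenosylmethionine, fell by 1.59 ± 0.19 (SE, n = 2 per arm; limma adjusted p = 0.0117) and kept 11.8 of 31.1 RPKM in U87MG and 12.6 of 48.3 in U251. MTR, methionine synthase, fell by 0.95 ± 0.18 (limma adjusted p = 0.0326). Both had the lower ratio in U251 (-1.86 for MAT2B and -1.14 for MTR), the reverse of the order seen for the replication-coupled genes. Of 6 genes of active demethylation limma called 0 (2 lower and 0 higher at an unadjusted p of 0.05), medians -0.15 and -0.25; IDH2, which makes the cofactor of TET enzymes, lay just above the threshold at -0.91 ± 0.20 (limma adjusted p = 0.05001). Of 8 methyl-CpG readers limma called 0 (2 lower and 1 higher at an unadjusted p of 0.05), medians -0.15 and -0.14, with MBD3 at -0.44 (limma adjusted p = 0.190) and ZBTB4 at 0.43 (limma adjusted p = 0.190).

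**Figure D4:**
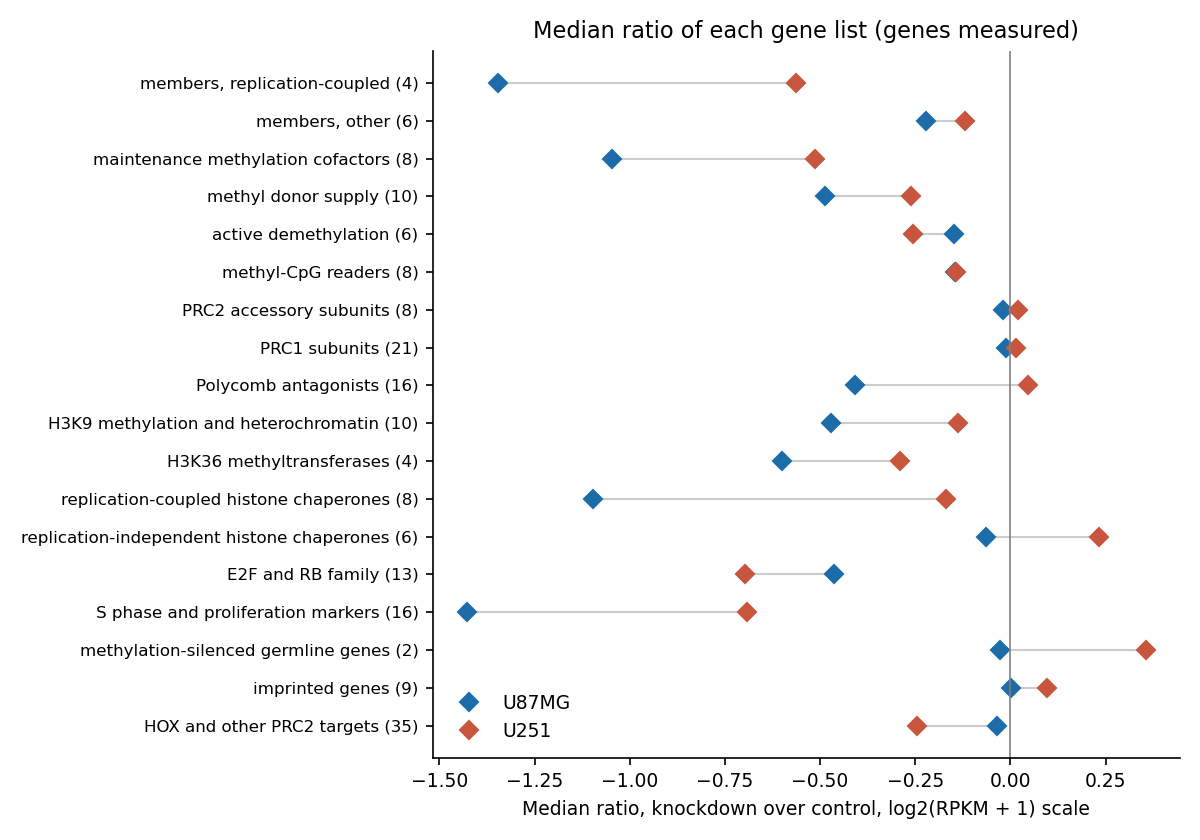
Median ratio of knockdown to control on the log2(RPKM + 1) scale for each gene list, U87MG in blue and U251 in red, with the number of genes measured in brackets. In U87MG the S phase markers (-1.43), the replication-coupled genes (-1.35), the replication-coupled chaperones (-1.10) and the maintenance cofactors (-1.05) lie farthest left, and in both lines the PRC2 accessory and PRC1 lists lie next to 0.

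Genes that DNA methylation or Polycomb is known to hold silent were read last. Of 30 germline genes known to be silenced by DNA methylation 28 stayed below 1 RPKM in all 4 libraries. The 2 measured, MAGEA3 and MAGEA6, were expressed in U251 in both arms, MAGEA3 at 25.3 and 31.2 RPKM and MAGEA6 at 29.1 and 39.2, and reached at most 1.02 and 0.147 in U87MG. Limma called neither (adjusted p = 0.919 and 0.383; 0 at an unadjusted p of 0.05), and the 2 genes are near-identical copies whose reads may be shared. Of 9 measured imprinted genes limma called 0 (1 lower and 1 higher at an unadjusted p of 0.05), medians 0.00 and 0.10. GRB10, a growth receptor adaptor, had 18.7 and 23.7 RPKM (control and knockdown) in U87MG, then 9.65 and 21.3 in U251 (limma adjusted p = 0.115). MEST was listed at 0 in the U87MG control and at 0.0768 in the knockdown, and stood at 18.7 and 35.6 in U251 (limma adjusted p = 0.238). SGCE, a sarcoglycan gene, stood on the other side at -0.64 and -0.38 (limma adjusted p = 0.141), as did PHLDA2 at -0.45 and -0.26 (limma adjusted p = 0.266).

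Of 50 HOX genes and other classical PRC2 targets 35 were measured, and 20 were below control in U87MG and 28 in U251 (55.5% and 50.5% of all genes), medians -0.04 and -0.25. Limma called 1 lower and 0 higher, against 2.61% and 1.16% of all genes. At an unadjusted p of 0.05 limma called 4 lower and 0 higher, against 12.8% and 8.29% of all genes. The counts of calls therefore say little about this list. The count below control in U251, 28 of 35, was above the share of all genes, 50.5%, and was not tested. The 1 call was HOXD10, a homeobox gene of posterior patterning, which fell by 0.80 ± 0.16 (SE, n = 2 per arm, limma adjusted p = 0.0419). HOXD10 kept 0.939 of 2.36 RPKM in U87MG and 16.5 of 29.8 in U251. TBX2 stood at -1.05 and -0.25 (limma adjusted p = 0.155), HOXA5 at -0.27 and -0.79 (limma adjusted p = 0.242) and HOXD9 at -0.28 and -0.78 (limma adjusted p = 0.194). Limma called 0 genes of these 3 lists higher in the knockdown, against 1.16% of all genes. At an unadjusted p of 0.05 limma called 0, 1 and 0 higher, against 8.29% of all genes. With 2, 9 and 35 genes measured, a count of 0 against a share of 1.16% says little. MAGEA6 and MEST passed the filter of 1 RPKM only through U251, so their change across lines includes values near 0 in U87MG.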

How the data were processed

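Poly(A) RNA was sequenced in 4 libraries, 1 per cell line and arm, grouped by sample title. The authors deposited RPKM values per gene, made with Bowtie 0.12.2 and hg19 per the submitters' processing notes. The counting tool, annotation and strand setting were not given in the sources used here. Reads of overlapping or antisense genes may therefore be mixed. Ratios used log2(RPKM + 1). The 16098 genes that reached 1 RPKM in any library were fitted with limma 3.58.1 in R 4.3.3, blocked by cell line, with an intensity trend, two-sided, with Benjamini-Hochberg adjustment over all of them at 0.05. This leaves 1 residual degree of freedom, so the test leans on variance shared across genes, and its p-values speak only of the spread among these 4 libraries, which may be technical. The fit was tested on simulated data in which a changed gene had the same fold in both lines. That test does not cover folds that differ between the lines, as those of the replication-coupled genes did.

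Low RPKM values are whole multiples of 1 read. Totals solved from short genes made 99.8% of 27973 genes whole in every library within 0.01 reads, and 1 read in a gene of 1 kilobase was worth 0.0358 to 0.0398 RPKM. Recovered reads served only the 95% Clopper-Pearson intervals, which cover counting error only.

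The members and lists were chosen with earlier results of these data known. Named genes were SRSF1, the 10 members, up to 4 genes per list ranked by the mean absolute ratio of the lines, the 6 nearest profiles and the genes in pair ratios; genes named as called beyond these (E2F1) were chosen after their values were seen, and 1 gene that the rule picks is not reported here. Promoters are RefSeq windows of GRCh38.p14 (all 10 members matched), and gene positions are from GENCODE 29 on GRCh38; the table has no coordinates and none were converted. Alternatives changed the pseudocount, filter, scaling, block, trend and classes. Python 3.11.15, pandas 2.3.3, scipy 1.17.1 and matplotlib 3.10.9 were used.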

Additional observations from a re-analysis of the deposited data

Results flagged for a closer look

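Several genes and lists stood on opposite sides of the control in the 2 lines. With 1 library per line and arm these differences were not tested, and no cause is offered. The values are the U87MG ratio minus the U251 ratio on the log2(RPKM + 1) scale, so a negative value means that the knockdown was lower relative to its control in U87MG. Among the 10 members only DNMT3A did so, by 0.28, from 112 to 370 reads per library.

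Among chromatin genes lower in the U87MG knockdown and higher in the U251 knockdown were the PRC1 subunit CBX6 (-0.66), the H3K4 and H3K36 methyltransferase genes ASH1L (-0.66), KMT2C (-0.66) and SETD2 (-0.43), and the replication-independent chaperone genes HIRA (-0.58), ATRX (-0.56) and CABIN1 (-0.43). The germline gene MAGEA3 differed by -0.50. The reverse held for IDH1 (0.76), which was higher in the U87MG knockdown and lower in the U251 knockdown, and for C17orf96 (0.53), a PRC2 accessory gene at nearly the same level in both U87MG libraries.

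Among list medians, the Polycomb antagonists (-0.45), the germline genes (-0.38, from 2 genes) and the replication-independent chaperones (-0.30) were on opposite sides, as were, by small amounts, the PRC2 accessory subunits (-0.0401) and the PRC1 subunits (-0.0268).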

How the results depend on the processing

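Calls across lines depended on the setting. Against 420 genes lower and 186 higher, limma called 52 and 26 with a pseudocount of 5, 0 and 0 without a filter, 5 and 6 after trimmed-mean rescaling, 172 and 88 without the intensity trend, and 0 and 0 without the block for cell line. It called 608 lower and 301 higher with an RPKM of at least 5 required, and 513 lower and 315 higher after quantile normalization. The share of calls that were higher was 30.7% as deposited, 54.5% after trimmed-mean rescaling and 38.0% after quantile normalization, and no scaling moved the median of all genes by 0.1. Members called lower went from 0 to 3 with an RPKM of at least 5 required and to 3 after quantile normalization. Between lines, genes called went from 7829 to 4286 and members from 5 to 2 without a filter. Of the other results for single members, 70 kept direction and side of the threshold, 6 passed it (UHRF1, HELLS and EZH2 under the 2 settings above) and 2 reversed, both DNMT3A, at 0.0088 with a pseudocount of 0.1 and 0.031 after quantile normalization. The cause was not tested.

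The median of the replication-coupled genes in U87MG was -1.10 with a pseudocount of 5, -1.50 with EZH2 counted among the others and -1.19 with RBBP7 counted as replication-coupled; in U251 it was -0.46 with a pseudocount of 5. No paired analysis was possible beyond the cell line as the block, because each line has 1 library per arm, and leaving out a library left no residual degree of freedom, so within-line values stand in its place. Depth limits DNMT3A and DNMT3B, at 86 to 370 reads per library.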
